A study of Homo sapiens with 6 samples.

Results

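This account concerns 33 genes that p53 is known to switch on, taken by symbol from the deposited table, in which all 33 were found by Ensembl gene ID among 58735 genes. The 6 libraries of messenger RNA come from 2 human prostate cancer cell lines, each with 1 library after a control siRNA, 1 after PLXND1 siRNA 1 and 1 after PLXND1 siRNA 2. C4-2B MDVR descends from C4-2B, which belongs to the LNCaP lineage, and was selected for resistance to the prostate cancer drug enzalutamide. H660 (NCI-H660) is a neuroendocrine prostate cancer line. PLXND1 encodes the semaphorin receptor Plexin D1, and the study asked what its loss does to prostate cancer cells that resist treatment. The labels give no time after transfection and do not say that libraries are separate cultures, so the spread between the knockdown libraries of a line holds both technical variation and any difference between the siRNAs.

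The protein p53 is a transcription factor that DNA damage, ribosomal stress and other insults stabilise. It binds paired short elements in DNA and switches on genes that stop the cell cycle, repair DNA, adjust metabolism or start cell death, and its target MDM2 marks p53 itself for degradation, which closes a feedback loop. The members are grouped below by role: feedback on p53, growth arrest, cell death, DNA repair, and metabolism or RNA.

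Levels are in FPKM, fragments scaled for exon length and for library size, as deposited. The libraries held 17655802 to 24105369 fragments, recovered from the FPKM steps. PLXND1 stood at 0.212 times the control (95% interval 0.187 to 0.24) with siRNA 1 and at 0.418 times (0.377 to 0.464) with siRNA 2 in C4-2B MDVR, but only at 0.835 and 0.826 times in H660. Intervals on levels and ratios come from fragment numbers and cover counting error only. The summed level of 4 luminal prostate markers (KLK3, KLK2, FOLH1 and HOXB13) was 349 to 829.9 FPKM in C4-2B MDVR and 0.365 to 0.463 FPKM in H660. The sum of 6 neuroendocrine markers (CHGA, SYP, INSM1, NCAM1, ENO2 and SCG3) was 168 to 176 FPKM in H660 and 3.73 to 5.54 FPKM in C4-2B MDVR, with INSM1 at 0 there. Both marker sets were highest in the line whose name they fit. Within C4-2B MDVR the luminal sum was 662 FPKM in the control, 829.9 FPKM with siRNA 1 and 349 FPKM with siRNA 2. Of all recovered fragments, mitochondrial genes took 3.38% in the control of C4-2B MDVR, 7.44% and 6.83% after its PLXND1 siRNAs, and 8.58% to 9.64% in H660.

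RefSeq promoters (GRCh38.p14, from 250 bases before a start site to 50 after it) were on hand for 25 of the 33 members, in 39 windows since some genes have several starts. They were searched for the p53 consensus site as 2 adjoining elements of 10 bases, with C at base 4 and G at base 7 kept in each and at most 2 other mismatches in 20 bases. The consensus is its own reverse complement, so a match reads on both strands. Such a match was in the windows of 4 members, and in those of 98 of all 27305 genes (0.359%) and 36 of the 10186 tested genes with a promoter (0.353%). By window this was 5 of 39, against 100 of 35116 (0.285%). The members were listed as known p53 targets, so this share is a description of the list. A match is a run of letters, and binding was not measured. The 4 matches are shown as the members' windows that hold letters near the consensus, with the matching 20 bases in capitals and 5 flanking bases on each side in lower case.
MDM2: gagctGGTCAAGTTCAGACACGTTCcgaaa
FAS: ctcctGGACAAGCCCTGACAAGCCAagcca
AEN: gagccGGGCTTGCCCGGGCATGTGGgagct
DDB2: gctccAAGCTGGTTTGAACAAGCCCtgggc
The MDM2 match lies at chr12:68808923-68808942 on the plus strand, in an intron of the gene by GENCODE 29 and 94 and 101 bases upstream of 2 internal starts. The FAS match lies at chr10:88991309-88991328 (plus strand), 122 bases before an internal start and in a noncoding exon. The AEN match, at chr15:88621306-88621325 (plus strand), is in an untranslated exon and begins 34 bases before the RefSeq start. The DDB2 match, at chr11:47214969-47214988 (plus strand), is in an untranslated exon, begins 5 bases before an internal start and runs past it. It has 1 mismatch to the consensus, and the other three have 2. No match in the other 21 members says only that these letters are not in those windows.

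In C4-2B MDVR the p53 target genes stood higher in the knockdown libraries than in the control, and no single one passed the test. Both knockdown libraries were above the control for 25 of the 30 tested members and both were below it for 0, where 32.0% of all tested genes had both above and 25.8% both below. The libraries lay on opposite sides of the control for 5, MDM4, CCNG1, PLK2, CYFIP2 and ZMAT3 (37.9% of tested genes). The 3 untested members also had both above, which makes 28 of 33, but TNFRSF10C had too few fragments for a direction. With siRNA 2 the counting intervals of TIGAR (1.23 times the control, 0.68 to 2.21) and SPATA18 (1.28 times, 0.764 to 2.13) included equal levels. The comparisons of siRNA 1 and siRNA 2 share the 1 control library of the line. The highest members were PHLDA3, GADD45A, TP53INP1, BTG2, TP53I3 and SESN1, each at least 1 log2 unit above the control with both siRNAs, which 0.671% of tested genes were. No member was that far below, and 0.39% of tested genes were. Differences are on the scale of log2(FPKM + 1), which understates the change of genes at low levels.

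The limma test called 0 of 15638 genes in C4-2B MDVR at an adjusted p under 0.05 (0.00%), and so 0 of the 30 members that passed the filter of a mean of 1 FPKM in at least 1 line. The lowest adjusted p of a member was 0.268, for PHLDA3. At an unadjusted p under 0.05 there were 17 members above the control and 0 below, against 3.74% of tested genes above and 2.15% below. The voom test on recovered fragments called 0 genes too, with 18 members above at that unadjusted p (893 of 15638 genes in either direction). Without a filter on low values limma called 851 of 34007 genes, and SESN1 was the 1 of 30 members among them (adjusted p = 0.0313). The median difference of the 30 tested members was 0.68, with 0.02 for all tested genes, and over all 33 members it was 0.57 with siRNA 1 and 0.72 with siRNA 2. Of the 30, 19 lay in the top 5% of all tested genes by difference and 8 in the top 1%. Without H660 knockdown replicate 1 or 2 the fit has 1 pair to take its spread from. Fewer members and fewer genes then passed that unadjusted p, and the median of the 30 tested members stayed at 0.68.

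Other genes moved in the same libraries. The summed level of 7 interferon response genes (IFIT1, IFIT2, IFIT3, OASL, OAS1, ISG15 and IFI6) in C4-2B MDVR was 103 FPKM in the control, 789 FPKM after siRNA 1 and 494 FPKM after siRNA 2, and all 7 were at least 1 log2 unit above the control with both. In H660 this sum was 105, 103 and 109 FPKM. The share of mitochondrial fragments was also lowest in the C4-2B MDVR control, and the luminal marker sum given above was higher with siRNA 1 and lower with siRNA 2 than in that control. The part of these in the p53 target differences was not tested. In bulk RNA, a change in each cell and a change in the share of cells that express a gene cannot be told apart.

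**Figure D1:**
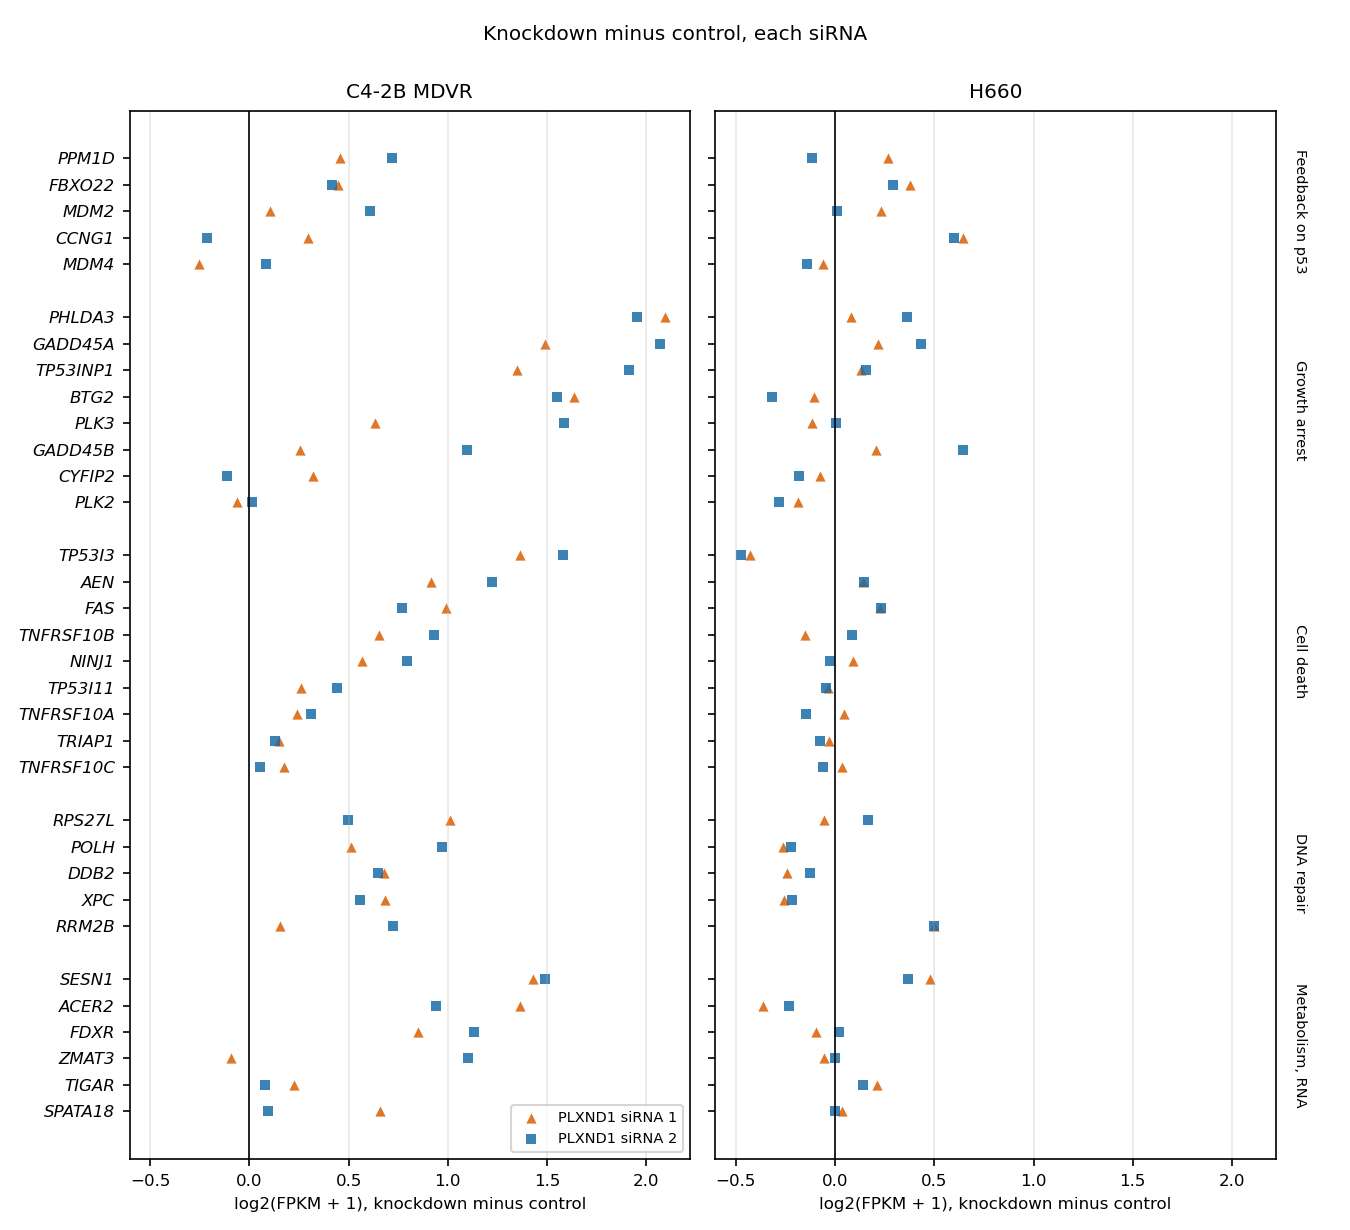
Differences of each knockdown library from the control of its line for the 33 members, grouped by role, on the log2(FPKM + 1) scale; triangles are siRNA 1, squares siRNA 2 and the vertical line the control. In C4-2B MDVR 28 members have both symbols right of the line, and in H660 12 do.

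Among the genes of growth arrest, PHLDA3 encodes a pleckstrin homology protein that restrains AKT. Its level was 3.47 FPKM in the C4-2B MDVR control, 18.1 FPKM with siRNA 1 and 16.3 FPKM with siRNA 2, a difference of 2.02 ± 0.19 log2 units (SE). Both knockdown libraries were thus far above the control, at 5.2 times (4.51 to 6.03) and 4.69 times (4.05 to 5.46) its level. In H660 the levels were 5.02, 5.37 and 6.73 FPKM, close to one another by comparison (0.22 ± 0.19). The gene lies at chr1:201464383-201469237 on the minus strand, and 19.1% of its exon bases are also in exons of AC096677.2 on the same strand, so some fragments cannot be given to one of the pair.

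GADD45A, whose product binds PCNA and CDK1 and slows the cycle after damage, had the widest gap between the lines of the tested members. It was at 4.57, 14.6 and 22.3 FPKM in the control, siRNA 1 and siRNA 2 libraries of C4-2B MDVR (1.78 ± 0.29 log2 units, adjusted p = 0.544 by limma). In H660 it was at 102, 119 and 139 FPKM (0.32 ± 0.29). Each knockdown library was above its control in both lines, and the lowest H660 level was above the highest C4-2B MDVR level. Its relative GADD45B, induced by stress and by NF-kB, was at 4.96, 6.11 and 11.7 FPKM in C4-2B MDVR and at 4.97, 5.89 and 8.31 FPKM in H660, so siRNA 2 gave the highest level in either line.

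TP53INP1, which promotes p53 phosphorylation and autophagy, was at 9.61 FPKM in the C4-2B MDVR control, 26.0 FPKM with siRNA 1 and 39.0 FPKM with siRNA 2 (1.63 ± 0.27 log2 units). In H660 its 3 levels were 13.2, 14.5 and 14.7 FPKM. BTG2, an antiproliferative partner of the CCR4-NOT deadenylase, was at 16.7, 54.0 and 50.9 FPKM in C4-2B MDVR (1.59 ± 0.17). In H660 BTG2 ran the other way, at 53.6, 49.6 and 42.7 FPKM (−0.21 ± 0.17). The knockdown libraries of C4-2B MDVR were thus near the level of the H660 control.

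The polo-like kinase genes were unlike each other in level. PLK3, a stress-activated kinase, was at 3.59, 6.11 and 12.8 FPKM in C4-2B MDVR (1.11 ± 0.42), and its siRNA 2 library was 2.09 times (1.85 to 2.36) its siRNA 1 library. In H660 it stayed between 1.97 and 2.23 FPKM. PLK2, which acts in centriole duplication, was low throughout, at 0.771 to 0.865 FPKM in C4-2B MDVR and at 1.58, 1.26 and 1.12 FPKM in H660. CYFIP2, a subunit of the WAVE complex that steers actin, was on either side of its control in C4-2B MDVR (5.97, 7.71 and 5.45 FPKM).

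Of the genes of cell death, TP53I3, an oxidoreductase linked to reactive oxygen, had the lowest adjusted p for a difference of the effect between the lines. It was at 1.96 FPKM in the C4-2B MDVR control and at 6.61 and 7.86 FPKM with siRNA 1 and siRNA 2, 3.37 times (2.67 to 4.3) and 4.01 times (3.17 to 5.11) the control. In H660 it was at 2.80 FPKM in the control and lower, at 1.82 and 1.73 FPKM, with the siRNAs, 0.652 times (0.502 to 0.843) and 0.619 times (0.478 to 0.797). Both knockdown libraries were thus above the 1 control library in C4-2B MDVR and below it in H660, as for 11.9% of tested genes.

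The death receptors shared a direction in C4-2B MDVR at very different levels. FAS, the receptor of FAS ligand, was at 1.13, 3.23 and 2.63 FPKM (0.88 ± 0.17 log2 units), and in H660 at 1.20, 1.57 and 1.58 FPKM (0.23 ± 0.17). TNFRSF10B, the TRAIL receptor DR5, was the most abundant of them at 36.9, 58.6 and 71.2 FPKM in C4-2B MDVR (0.79 ± 0.21), while in H660 the siRNAs fell on either side of the control (11.4, 10.1 and 12.1 FPKM). TNFRSF10A, the other TRAIL receptor with a death domain, was at 7.98, 9.59 and 10.1 FPKM in C4-2B MDVR and at 4.34, 4.50 and 3.83 FPKM in H660. The decoy receptor TNFRSF10C had 1 to 6 fragments in each library, too few for a direction, and 39.3% of its exon bases overlap other genes.

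AEN, a nuclease that digests DNA in dying cells, was at 5.59, 11.4 and 14.4 FPKM in C4-2B MDVR (1.07 ± 0.19 log2 units) and at 4.12, 4.65 and 4.67 FPKM in H660. NINJ1, which ruptures the plasma membrane of dying cells, had the highest control level of all members in C4-2B MDVR and was at 44.9, 66.9 and 78.5 FPKM (0.68 ± 0.18). In H660 its levels were 15.6, 16.6 and 15.3 FPKM. TRIAP1, a small inhibitor of apoptosis that works with PRELI proteins in mitochondria, hardly differed in C4-2B MDVR (27.8, 30.9 and 30.5 FPKM, a difference of 0.14 ± 0.14). TP53I11 was at 9.37, 11.4 and 13.1 FPKM in C4-2B MDVR (0.35 ± 0.16) and at 53.3 to 55.0 FPKM in H660.

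The 5 genes of DNA repair and nucleotide supply were all above the control with both siRNAs in C4-2B MDVR. DDB2, which finds ultraviolet lesions in chromatin, was at 6.22, 10.6 and 10.3 FPKM (0.66 ± 0.15 log2 units). XPC, which opens the DNA at such lesions, was at 4.82, 8.33 and 7.55 FPKM (0.62 ± 0.15). POLH, the polymerase that copies across ultraviolet damage, was at 7.75, 11.5 and 16.2 FPKM (0.74 ± 0.24). In H660 these 3 genes were below the control with both siRNAs, with differences of −0.18 for DDB2 and −0.24 for XPC and POLH. Exons of other genes cover 30.4% of the XPC exon bases, with the largest overlap on the opposite strand, and strand use is not given in the sources used here.

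RRM2B, the ribonucleotide reductase subunit that p53 induces, was the repair gene higher in both lines. It was at 12.3, 13.8 and 20.9 FPKM in C4-2B MDVR and at 9.28, 13.5 and 13.5 FPKM in H660, where each siRNA gave 1.46 times the control (1.35 to 1.57, and 1.36 to 1.56). The ribosomal protein RPS27L was at 5.27, 11.6 and 7.84 FPKM in C4-2B MDVR (0.75 ± 0.27), higher with siRNA 1 than with siRNA 2, and at 2.59, 2.45 and 3.02 FPKM in H660.

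Among the genes of metabolism, SESN1, a sestrin that curbs mTORC1 and oxidants, was nearly alike with both siRNAs in C4-2B MDVR. Its levels were 3.10, 10.04 and 10.5 FPKM (1.46 ± 0.15 log2 units, adjusted p = 0.319 by limma). In H660 it was also above the control with both, at 3.41, 5.13 and 4.68 FPKM (0.42 ± 0.15), and it was the 1 member with an unadjusted p under 0.05 there. FDXR, the mitochondrial ferredoxin reductase, was at 16.3, 30.2 and 37.0 FPKM in C4-2B MDVR (0.99 ± 0.19) and at 4.87 to 5.37 FPKM in H660. ACER2, a Golgi ceramidase, was at 7.18, 20.04 and 14.7 FPKM (1.15 ± 0.23) and in H660 at 3.03, 2.13 and 2.43 FPKM, below the control with both siRNAs.

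ZMAT3, an RNA-binding regulator of splicing, showed the widest gap between the siRNAs. It was at 2.97 FPKM in the C4-2B MDVR control, 2.72 FPKM with siRNA 1 and 7.53 FPKM with siRNA 2, so that only siRNA 2 was above the control (0.50 ± 0.52 log2 units). In H660 it was at 1.67 to 1.78 FPKM. TIGAR, a fructose bisphosphatase that diverts glycolysis, and SPATA18, of mitochondrial quality control, did not pass the filter. TIGAR was at 0.312, 0.532 and 0.383 FPKM in C4-2B MDVR, with 45.6% of its exon bases shared with other genes. SPATA18 was at 0.322, 1.09 and 0.411 FPKM there and had 0, 3 and 0 fragments in H660.

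Of the 5 feedback genes, 3 were above the control with both siRNAs in C4-2B MDVR. MDM2, the ubiquitin ligase of p53, was at 6.83, 7.41 and 10.9 FPKM in C4-2B MDVR (0.36 ± 0.27 log2 units), at 1.09 times (1.02 to 1.16) the control with siRNA 1 and 1.6 times (1.5 to 1.7) with siRNA 2. In H660 it was at 6.31, 7.57 and 6.35 FPKM. PPM1D, the phosphatase WIP1, which removes damage-induced phosphates, was at 3.52, 5.20 and 6.43 FPKM in C4-2B MDVR (0.59 ± 0.24). FBXO22, of a ubiquitin ligase complex, was at 3.77, 5.50 and 5.36 FPKM (0.43 ± 0.15) and in H660 at 2.00, 2.89 and 2.67 FPKM, above the control with both siRNAs in each line. MDM4, the partner of MDM2 that blocks p53, was at 5.05, 4.06 and 5.41 FPKM, on either side of its control. CCNG1, cyclin G1, was on either side of its control in C4-2B MDVR (41.3, 50.9 and 35.5 FPKM) but was at 19.8, 31.5 and 30.5 FPKM in H660, the highest mean difference of any member there (0.62 ± 0.25).

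**Figure D2:**
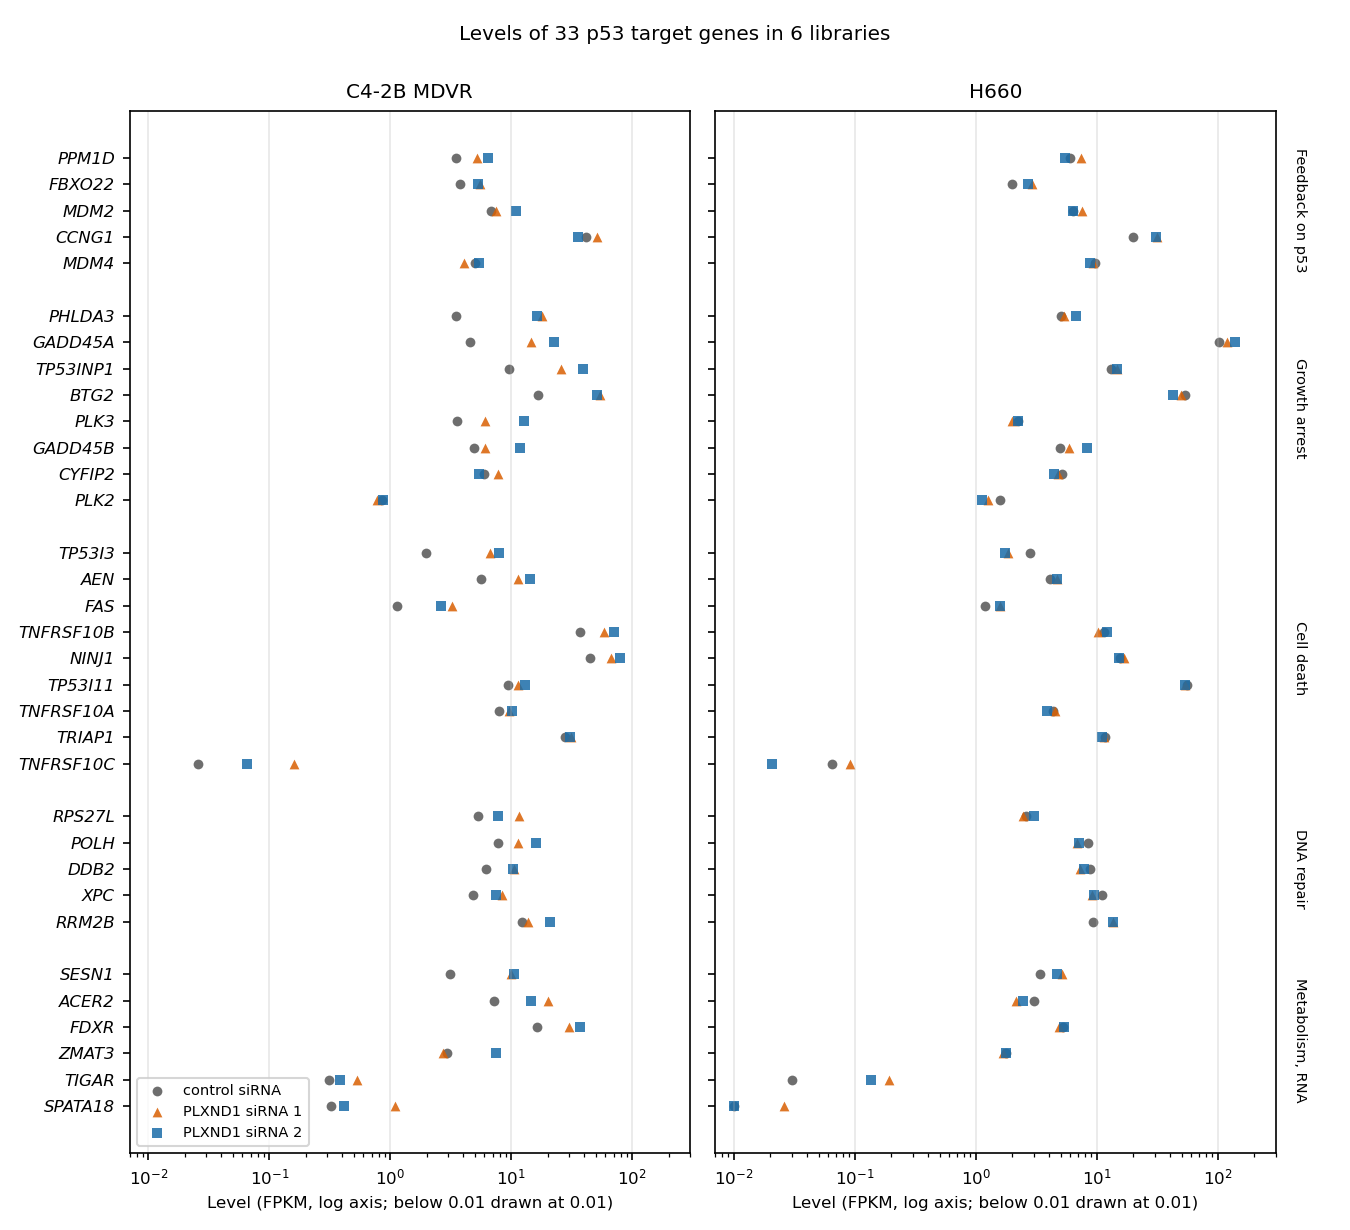
Levels of the 33 members in FPKM on a log axis, C4-2B MDVR left and H660 right; circles are the control, triangles siRNA 1 and squares siRNA 2, and values under 0.01 FPKM are drawn at 0.01. GADD45A, at 102 to 139 FPKM in H660, and NINJ1, at 44.9 to 78.5 FPKM in C4-2B MDVR, are among the highest members of their lines.

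The level with siRNA 2 in C4-2B MDVR was above that with siRNA 1 for 16 of the 30 tested members and below it for 7 by the counting interval of the ratio, where 29.6% and 28.9% of tested genes were. SPATA18, not tested, was also below. The ratio was 2.77 (2.5 to 3.08) for ZMAT3 and 1.92 (1.64 to 2.25) for GADD45B, beside that of PLK3. It was 0.379 (0.248 to 0.564) for SPATA18, 0.674 (0.627 to 0.724) for RPS27L and 0.733 (0.658 to 0.817) for ACER2. In H660 siRNA 2 was above siRNA 1 for 5 tested members and below for 5, against 21.6% and 22.7% of tested genes. With 1 library for each siRNA in a line these ratios compare libraries, and whether the siRNAs differ was not tested.

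In H660 the members showed no common direction. Both knockdown libraries were above the control for 12 members and both below for 11, where 32.1% and 38.3% of tested genes were, and the other 10 (background 26.5% on opposite sides) were mixed or at 0. The median difference of the 30 tested members was −0.03, against −0.01 for all tested genes. The limma test called 0 of 15638 genes (0.00%) and 0 members, with 1 member (SESN1) at an unadjusted p under 0.05 above the control and 0 below, against 2.86% and 1.28% of tested genes. The voom test called 0 genes, again with 1 member above at that p. When either knockdown library of C4-2B MDVR was left out, more members and more genes passed that p by limma. When either of H660 was left out, no member passed it while more genes did. Limma without a filter called 876 of 34007 genes, with 0 of the 30 tested members among them. The untested members were not looked up there. No member was 1 log2 unit from the control with both siRNAs (background 0.377% above and 0.358% below). The reduction of PLXND1 was also much smaller in this line, and its part in the members' differences was not tested.

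**Figure D3:**
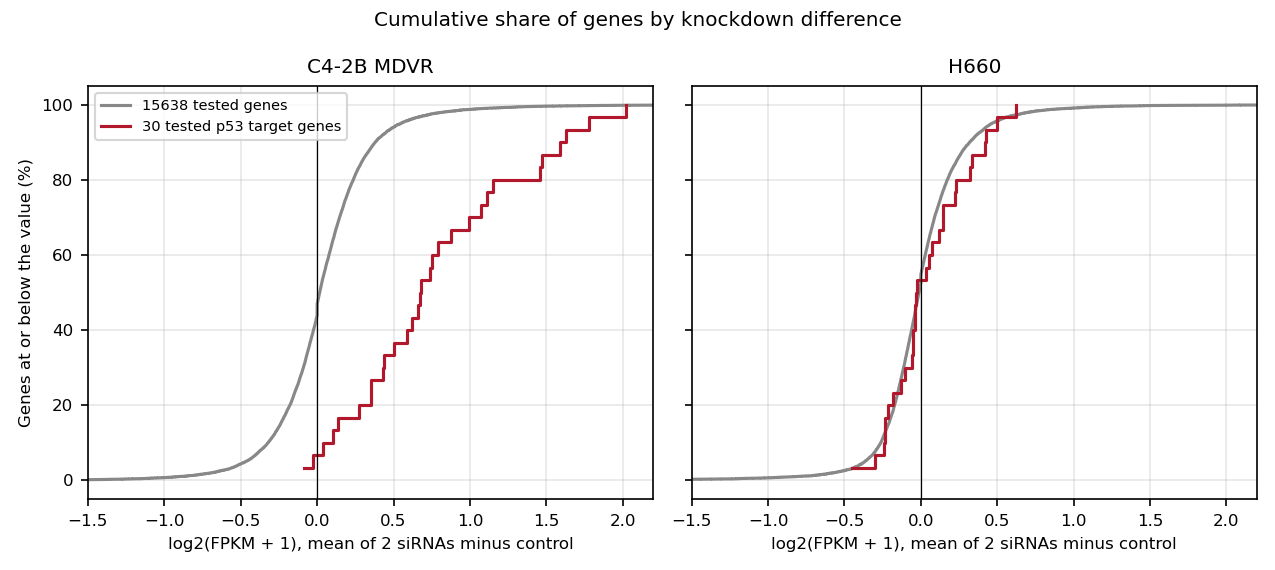
Cumulative share of genes by the mean difference of the knockdown libraries from the control, on the log2(FPKM + 1) scale, for the 30 tested members (red) and all 15638 tested genes (grey). In C4-2B MDVR the members lie to the right, with a median of 0.68 against 0.02, and in H660 the curves run together, with medians of −0.03 and −0.01.

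The test of the difference of the effect between the lines called 0 of 15638 genes (0.00%), as did voom. Without a filter limma called 1372 of 34007 genes, with 0 of the 30 tested members among them. The untested members were not looked up there. The lowest adjusted p of a member by limma was 0.614, for TP53I3, with a difference of 1.92 ± 0.24 log2 units, followed by BTG2 (1.81 ± 0.24, adjusted p = 0.744). At an unadjusted p under 0.05 there were 13 members with the higher effect in C4-2B MDVR and 0 with the lower, against 2.37% and 2.11% of tested genes (4.48% in all). Without H660 knockdown replicate 1 or 2 the 13 became 4 and 3. A group of 8 members had both libraries above the control in C4-2B MDVR and both below in H660: BTG2, TP53I3, TRIAP1, TP53I11, XPC, DDB2, POLH and ACER2. All 8 were tested, and 11.9% of tested genes had this pattern. Both libraries were below the H660 control for 11 of the 30 tested members, where 38.3% of tested genes were. The H660 counting intervals included equal levels for TRIAP1 with both siRNAs (0.849 to 1.13 and 0.82 to 1.08). They also did for TP53I11 with siRNA 1 (0.948 to 1.004) and ACER2 with siRNA 2 (0.635 to 1.01).

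Over both lines together limma and voom each called 0 genes (0.00%), with a limma adjusted p of 0.985 or more for each member. All 4 knockdown libraries were above their controls for 11 of the 33 members, namely MDM2, FBXO22, PHLDA3, TP53INP1, GADD45A, GADD45B, FAS, AEN, RRM2B, SESN1 and TIGAR. TIGAR was not tested, and its siRNA 2 interval in C4-2B MDVR (0.68 to 2.21 times the control) included equal levels. Of all tested genes 10.7% were above their controls in all 4. At an unadjusted p under 0.05 there were 8 members above and 0 below, against 2.56% and 1.62% of tested genes. The 8 became 5 without H660 knockdown replicate 1 and 4 without replicate 2.

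The lines were also compared in level, over the control and knockdown libraries of each with the treatment as a term. Of 30 tested members 9 were called with at least a 2-fold difference, where 38.0% of tested genes were. At an unadjusted p under 0.05 there were 5 higher and 13 lower in H660, against 72.5% of tested genes in either direction. The members higher in H660 were 2 (background 20.1%) and those lower in H660 were 7 (background 17.9%). GADD45A was higher in H660 by 3.25 ± 0.33 log2 units (limma adjusted p = 0.000273), at 120 ± 18.2 FPKM (SD, n = 3 libraries) against 13.8 ± 8.91 FPKM. TP53I11 was higher there by 2.17 ± 0.13 log2 units, at 54.0 ± 0.907 against 11.3 ± 1.87 FPKM. Each SD here and below spans the control and both knockdown libraries of a line, so it includes any knockdown difference.

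The members lower in H660 came from the groups of cell death, growth arrest, repair and metabolism. TNFRSF10B was at 55.5 ± 17.4 FPKM (SD, n = 3 libraries) in C4-2B MDVR and at 11.2 ± 1.01 FPKM in H660, a log2 difference of −2.16 ± 0.20 (SE, limma adjusted p = 0.000201). FDXR differed by −2.15, ACER2 by −1.99, NINJ1 by −1.90, TRIAP1 by −1.31, PLK3 by −1.29 and RPS27L by −1.27. The limma adjusted p for PLK3 was over 0.05 when H660 knockdown replicate 1 (0.0645) or 2 (0.0612) was dropped, and its difference shrank to −0.90, under 2-fold, when replicate 2 of the C4-2B MDVR knockdown was. AEN (−0.98) and TNFRSF10A (−0.97) passed the adjusted p but lay just under 2-fold. With pseudocounts of 0.1 and 0.5 and by voom both were past 2-fold (AEN −1.10, −1.05 and −1.10, and TNFRSF10A −1.11, −1.04 and −1.08). In these settings the members called numbered 12, 11 and 13 of 30, where 7417, 6811 and 7506 of 15638 genes were called. BTG2 (0.42), MDM2 (−0.26) and DDB2 (−0.14) had no call. Both MDM2 and DDB2 changed sign when libraries were rescaled without mitochondrial genes and short RNAs.

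The control libraries alone, 1 in each line and so with no test, gave other ratios for some members. The H660 control was at 22.4 times (19.4 to 26) the C4-2B MDVR control for GADD45A and at 5.87 times (5.55 to 6.21) for TP53I11. For PLK3, called above, it was at 0.618 times (0.51 to 0.747), which is under 2-fold. Of the pair just under 2-fold, AEN was at 0.738 times (0.661 to 0.823) and TNFRSF10A at 0.544 times (0.471 to 0.628). TP53INP1, with no call and a difference of −0.58 over all libraries, was at 1.37 times (1.27 to 1.47). For BTG2, with no call, the H660 control was at 3.2 times (2.98 to 3.44). For DDB2 it was at 1.39 times (1.26 to 1.54), like TP53INP1 in the opposite direction to the comparison over all libraries. The same held for PHLDA3 at 1.45 times (1.22 to 1.71) and TP53I3 at 1.43 times (1.1 to 1.86). Over all libraries these 2 differed by −0.77 and −0.92.

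**Figure D4:**
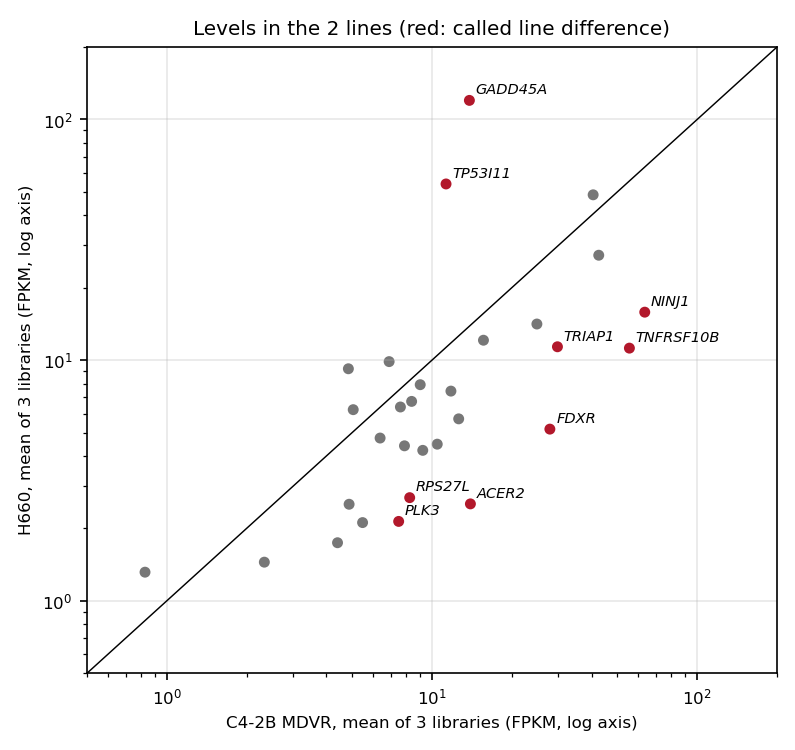
Mean level of the 30 tested members over the 3 libraries of each line, in FPKM on log axes, with the line of equal levels; red points have a called difference of at least 2-fold. GADD45A and TP53I11 lie above the line and the 7 other red points below it.

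Other known p53 targets, a list of 36 genes outside the members, leaned the same way in C4-2B MDVR. Both knockdown libraries were above the control for 24 of the 36 and both below for 1 (background 32.0% and 25.8%), with a median of 0.33 over the 34 tested. By limma 0 of them passed, and at an unadjusted p under 0.05 there were 9 above and 0 below (background 3.74% and 2.15%). CDKN1A, whose product p21 halts cyclin-dependent kinases, was at 8.89 times (8.56 to 9.24) and 7.28 times (7 to 7.57) the control with siRNA 1 and siRNA 2. The growth factor gene GDF15 was at 1.91 and 3.13 times, and BBC3, which encodes the cell-death protein PUMA, at 1.71 and 4.1 times. PMAIP1, which encodes NOXA, was at 2.91 and 2.95 times, and TRIM22, which interferon also induces, at 26.8 and 4.18 times. In H660 both libraries were above the control for 17 of the 36 and both below for 7 (background 32.1% and 38.3%), with a median of 0.04 over the 34 tested. By limma 0 passed there, and at an unadjusted p under 0.05 there were 4 above and 0 below (background 2.86% and 1.28%). CDKN1A was at 1.04 and 1.02 times the H660 control, while PMAIP1 (1.91 and 1.84 times) and GDF15 (1.44 and 1.74 times) were above it.

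A list of regulators and relatives of p53 held more genes below than above the control in each line, as did all tested genes in H660. Of 26 such regulators and relatives, 5 were above and 10 below the control with both siRNAs in C4-2B MDVR, where 32.0% and 25.8% of tested genes were. The counts in H660 were 7 and 13, where 32.1% and 38.3% of tested genes were. By limma 0 passed in either line. At an unadjusted p under 0.05 there were 0 in C4-2B MDVR (background 3.74% above and 2.15% below). In H660 there were 2, RCHY1 and JMY, both above the control (background 2.86% above and 1.28% below). RCHY1 was named after its values were seen. CDKN2A, whose locus encodes the MDM2 inhibitor ARF, was at 0.57 and 0.654 times the control in C4-2B MDVR. The kinase gene PRKDC was at 0.648 and 0.82 times, PML at 1.36 times with each siRNA, the p53 cofactor gene JMY at 1.31 and 1.63 times and the inhibitor gene PPP1R13L at 1.81 and 1.19 times.

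Cell-cycle genes that are known to be repressed through p21 and the DREAM complex had different levels with the siRNAs. Of 23 such genes, 9 were below the C4-2B MDVR control with both siRNAs and 1 (CDK1) was above, where 25.8% and 32.0% of tested genes were. By limma 0 passed, and at an unadjusted p under 0.05 CCNB1 and CDC20 were below (background 2.15%) and 0 above. Their median was −0.53 with siRNA 1 and 0.07 with siRNA 2, each from 1 library. The siRNA 2 level was above the siRNA 1 level beyond counting error for 22 of the 23 and below it for 0. Of all tested genes 29.6% were above and 28.9% below. CCNB1 was at 0.527 and 0.721 times the control and CDC20 at 0.596 and 0.688 times, both of them drivers of mitosis. CENPF (0.436 and 0.884 times), CCNA2 (0.51 and 0.924 times) and BIRC5 (0.576 and 0.929 times) were much lower with siRNA 1 than with siRNA 2. For the p53 target members the medians were 0.57 and 0.72.

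**Figure D5:**
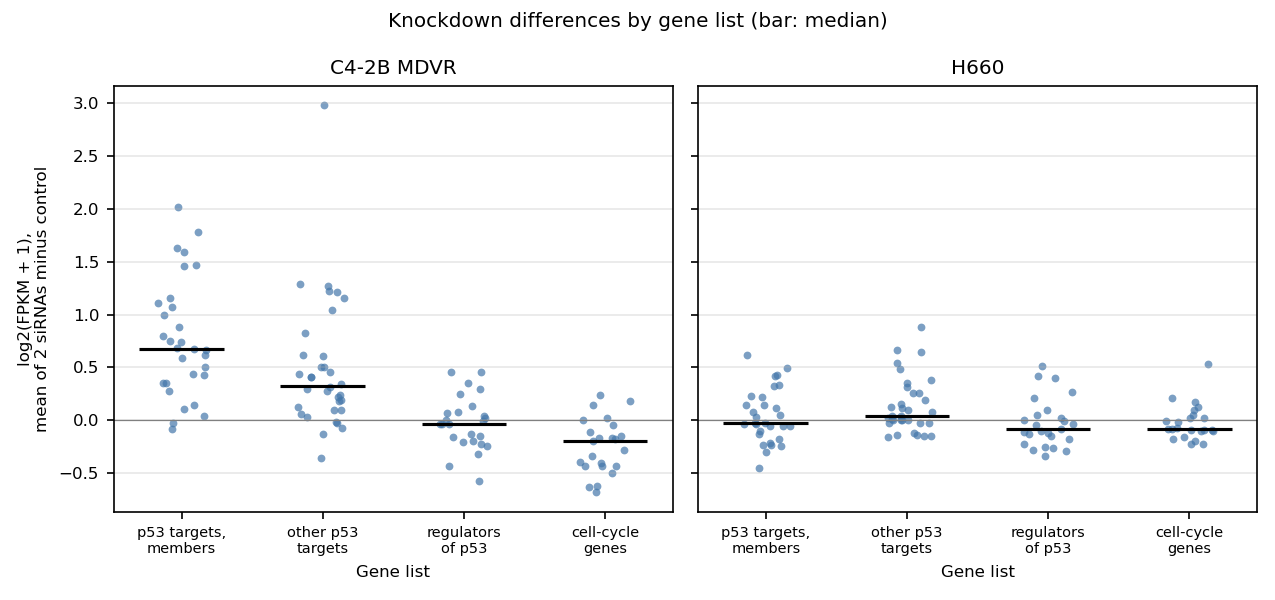
Mean difference of the knockdown libraries from the control, on the log2(FPKM + 1) scale, for the tested genes of 4 lists in each line; points are genes, spread sideways for legibility, and bars are medians. In C4-2B MDVR the median is 0.68 for the p53 target members, 0.33 for other p53 targets, −0.04 for regulators of p53 and −0.20 for cell-cycle genes.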

How the data were processed

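The deposited table holds FPKM values, computed by the authors, 1 column per library. Per the submitters' processing notes, HISAT and Cufflinks were used with build hg18; their versions and roles are not given in the sources used here, and strand settings are not either. All 58735 gene IDs are in GENCODE 29, and gene names, exon lengths and gene coordinates here come from that GRCh38 annotation. FPKM times exon length gave whole multiples of 1 step per library for 100% of genes of up to 100 fragments (tolerance 0.05), from which fragments were recovered. The step also carries a factor of 0.92 to 1.08 per library, left in.

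Levels were tested as log2(FPKM + 1) with limma 3.58.1 (R 4.3.3, trend, two-sided), for genes with a mean of at least 1 FPKM in at least 1 line. Fits of 4 groups (2 residual degrees of freedom) and of line plus treatment (3) used all 6 libraries, with Benjamini-Hochberg adjustment over all genes tested. The lone control of a line is assumed to vary like the knockdown pairs. Line differences also had to reach 2-fold. The fit was tested on simulated data.

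The members and lists were chosen with earlier results of these data known. The text gives all members by role, with values for those at least 1 log2 unit from the control with both siRNAs, those called and the extremes, and up to 5 genes of other lists by size of the C4-2B MDVR difference. RefSeq promoters were searched as described. Alternatives were pseudocounts of 0.1 and 0.5, no filter or one of 5 FPKM, quantile normalization and rescaling without mitochondrial genes and short RNAs. Others were voom on recovered fragments, a replicate block and leaving out each knockdown library. Some cell type markers on the lists are not reported here.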

Additional observations from a re-analysis of the deposited data

How the results depend on the processing

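The members' median in C4-2B MDVR stayed between 0.58 and 0.78 under all alternatives. With all 6 libraries 15 to 18 members were above the control at an unadjusted p under 0.05. Beside them 771 to 970 of 15638 genes were at that p in either direction, or 820 of 15173 after rescaling. It was 3492 of 34007 genes with no filter and 575 of 9384 with one of 5 FPKM. The count of genes called in C4-2B MDVR was 0, but 851 of 34007 with no filter, 3 of 9384 with a filter of 5 FPKM and 2 of 15173 after rescaling. In H660 it was 0, but 876 of 34007 with no filter and 2 of 9384 with the filter of 5 FPKM. It was 1 with each of the pseudocounts of 0.1 and 0.5, quantile normalization and the replicate block (siRNA number as a term). The block changed no member's call and left 18 members above at an unadjusted p under 0.05 in C4-2B MDVR and 0 in H660. Between the lines, siRNA 1 minus siRNA 2 correlated at −0.0043 over 15638 genes, which gives no sign of a difference between the numbers that both lines share. With no filter 1372 of 34007 genes differed in effect between lines. The members' median of that difference was 0.67, but 0.81 with a pseudocount of 0.1 and 0.84 with a filter of 5 FPKM. The H660 median of −0.03 was −0.056 with voom and −0.033 to 0.0037 leaving out 1 of its knockdown libraries. Genes called between the lines numbered 3796 of 9384 with a filter of 5 FPKM, and rescaling moved the median of all genes in that comparison to 0.23.

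Members with no call that changed sign in C4-2B MDVR were CCNG1 (−0.068 by quantile normalization, −0.054 after rescaling) and PLK2 (0.0057 by quantile normalization). Leaving out 1 library there gave ranges of −0.26 to 0.085 for MDM4, −0.21 to 0.29 for CCNG1, −0.063 to 0.012 for PLK2, −0.11 to 0.32 for CYFIP2 and −0.095 to 1.10 for ZMAT3. In H660 the ranges were −0.12 to 0.26 for PPM1D, −0.12 to 0.0061 for PLK3, −0.15 to 0.042 for TNFRSF10A, −0.15 to 0.087 for TNFRSF10B, −0.024 to 0.088 for NINJ1, −0.058 to 0.16 for RPS27L, −0.096 to 0.022 for FDXR and −0.057 to 0.0014 for ZMAT3. For H660 against C4-2B MDVR, rescaling gave 0.0029 for MDM2, 0.090 for GADD45B and 0.12 for DDB2, quantile normalization gave −0.019 for PLK2, and the range for GADD45B leaving out 1 library was −0.38 to 0.099. Apart from leaving out a library, where fewer samples enter, and the filters, where other genes are tested, the cause was not tested. With 1 control library per line, no alternative could leave a control out.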
